A study of Homo sapiens with 9 samples.

Results

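CCL20, CCL3, CCL4, CCL5, CCL17, CCL22, CXCL9 and CXCL10, which encode chemokines that activated B cells can secrete, and CCR7 and CCR6, which encode chemokine receptors carried by B cells, were examined as a set of 10 genes. Each gene was represented by the array's transcript cluster (the group of probes summarised into 1 value) that was annotated with that symbol and no other. By this rule 8 of the 10 genes were measured, out of 14232 genes with such a cluster and 22011 clusters in all. CCL3 had no cluster of its own, and the cluster that carries CCL4 also carries its near-identical copies CCL4L1 and CCL4L2, so neither CCL3 nor CCL4 was measured here. CCR6 had a cluster of its own beside another shared with a neighbouring gene, and only the former was used.

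The cells were GM12878, an established human lymphoblastoid line made by transforming B cells with Epstein-Barr virus. All cultures were seeded at 900000 cells per ml, and the 9 arrays fell into 3 groups of 3 cultures: untreated at 0 h, 10 µM D,L-sulforaphane for 8 h, and 10 µM D,L-sulforaphane for 24 h. Sulforaphane is an isothiocyanate from cruciferous vegetables that activates the transcription factor NRF2. RNA was measured on Affymetrix human exon arrays, and the deposited values are log2 signals on which a difference of 1 is a doubling. Every treated culture had also spent its time in culture, and no array of cells kept for 8 or 24 h with vehicle alone was analysed here, so an effect of the drug and an effect of time in culture cannot be told apart. The cells are 1 line from 1 source, and nothing in the labels ties cultures of different time points to one another.

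Chemokines are small secreted proteins that direct cell migration by binding G protein-coupled receptors, whose signal runs through Gi proteins and is ended by arrestins and RGS proteins. CCL20 is the chemokine ligand of CCR6. CCL17 and CCL22 share the receptor CCR4, CXCL9 and CXCL10 share CXCR3, and CCL5 binds CCR1 among others. CCR7 guides lymphocytes into lymph nodes along its ligands CCL19 and CCL21. In B cells transformed by Epstein-Barr virus, the viral protein LMP1 activates NF-kB, a transcription factor that drives many chemokine genes.

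CCL20 fell at 8 h and was the only measured member to pass the test of limma, in which the Benjamini-Hochberg adjustment ran across the 22011 clusters and a gene was called at an adjusted p below 0.05. At 8 h 0.595% of all clusters were called. The signals of CCL20 were 9.59, 8.88 and 9.76 in the untreated cultures, 8.01, 7.96 and 7.87 at 8 h, and 9.19, 8.93 and 9.33 at 24 h. All 8 h arrays lay below all untreated arrays, by at least 0.87, while the untreated and 24 h arrays overlapped. The group means were 9.41 ± 0.46, 7.95 ± 0.07 and 9.15 ± 0.20 (SD, n = 3 each). At 8 h CCL20 was 2.76-fold lower than in the untreated cultures, a difference of -1.46 ± 0.21 log2 units (SE; 95% interval -1.95 to -0.98; limma adjusted p = 0.031). This was the lowest difference of all 22011 clusters, a rank that was known when the genes were brought together and is given as a description. At 24 h the difference from the untreated cultures was -0.26 ± 0.21 (95% interval -0.74 to 0.23; limma adjusted p = 0.48). From 8 h to 24 h the signal was 2.31-fold higher, and all 24 h arrays lay above all 8 h arrays, but the difference of 1.21 ± 0.21 did not pass (95% interval 0.72 to 1.70; limma adjusted p = 0.083). In the limma moderated F-test over the 3 time points CCL20 was again the only one of the 8 measured members called (adjusted p = 0.034), against 1.35% of all clusters.

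The call for CCL20 at 8 h changed with the arrays in the fit. Of the 9 fits that each left out 1 array, CCL20 passed in 2, without untreated replicate 1 (difference -1.38, limma adjusted p = 0.041) and without untreated replicate 2 (-1.73, adjusted p = 0.0054). It did not pass without untreated replicate 3 (-1.29, adjusted p = 0.12), without 8 h replicates 1, 2 or 3 (adjusted p = 0.12, 0.086 and 0.13) or without 24 h replicates 1, 2 or 3 (adjusted p = 0.062, 0.057 and 0.068). Without untreated replicate 2, which had the lowest untreated signal of CCL20, the difference between 24 h and 8 h passed as well (1.21, adjusted p = 0.012). The direction at 8 h and from 8 h to 24 h was the same in every one of these 9 fits, as the plot of CCL20 by setting shows. It could not have turned, because the 8 h arrays overlapped neither the untreated nor the 24 h arrays.

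**Figure D1:**
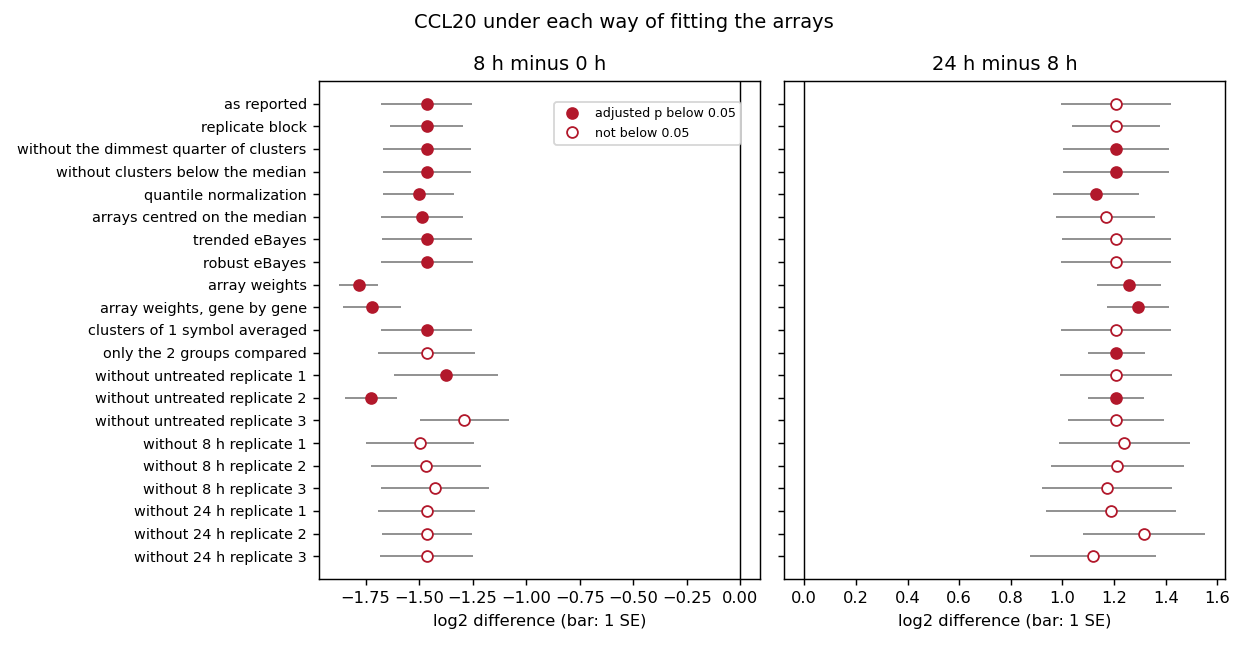
Log2 difference of CCL20 (horizontal axis, bar 1 SE) between 8 h and 0 h (left) and between 24 h and 8 h (right) for the reported fit and each alternative (vertical axis), with filled points where the limma adjusted p was below 0.05. All points at left lie between -1.78 and -1.29 and all points at right between 1.12 and 1.32, while the fill changes with the arrays included.

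The promoter of CCL20 is shown because this gene carries the only call among the members. It is the 250 bases before the start of the RefSeq gene (GRCh38.p14, chr2:227813592-227813841, plus strand), written 5′ to 3′ along the gene, and the capitals mark a match to the NF-kB consensus:
CCL20: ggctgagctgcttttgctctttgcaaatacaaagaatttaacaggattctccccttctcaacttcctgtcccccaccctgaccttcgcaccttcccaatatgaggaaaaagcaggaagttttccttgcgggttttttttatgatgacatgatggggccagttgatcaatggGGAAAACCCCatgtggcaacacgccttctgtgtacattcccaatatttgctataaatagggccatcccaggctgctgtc
The match lay 79 to 70 bases before the start and read in the direction opposite to the gene. A TATA box (the letters TATAAA) lay 29 to 24 bases before the start, and neither an antioxidant response element core (TGACNNNGC), the kind of element that NRF2 binds, nor a STAT element (TTCNNNGAA) was matched in these 250 bases. On either strand, 5.21% of all 35116 RefSeq promoter windows of the same length held a match to the NF-kB consensus, 10.7% held TATAAA, 10.9% held TGACNNNGC and 6.57% held TTCNNNGAA. Of the 6 members with a RefSeq promoter entry (CCL20, CCL3, CCL22, CXCL9, CXCL10 and CCR6), 3 held an NF-kB match and 3 a TATA box. These matches describe letters and not bound sites, and no match overlapped a match to another motif.

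CCR6, the receptor of CCL20, was lower at both treated times and at about the same level in both, but passed the test at neither. Its signals were 7.72, 7.05 and 7.58 in the untreated cultures, 6.89, 6.86 and 6.99 at 8 h, and 6.87, 6.84 and 7.01 at 24 h. Every treated array lay below every untreated array, by a gap of only 0.058 at 8 h and 0.035 at 24 h, both set by untreated replicate 2. The difference from the untreated cultures was -0.54 ± 0.16 at 8 h, or 1.45-fold lower (95% interval -0.90 to -0.17; limma adjusted p = 0.17), and -0.54 ± 0.16 at 24 h, or 1.46-fold lower (95% interval -0.91 to -0.18; adjusted p = 0.14). Without untreated replicate 2 both differences were -0.74 and both passed (limma adjusted p = 0.017 at 8 h and 0.014 at 24 h). From 8 h to 24 h CCR6 differed by -0.01 ± 0.16 (95% interval -0.37 to 0.36), whereas CCL20 differed by 1.21 over the same interval. The difference between the 2 genes was not tested.

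**Figure D2:**
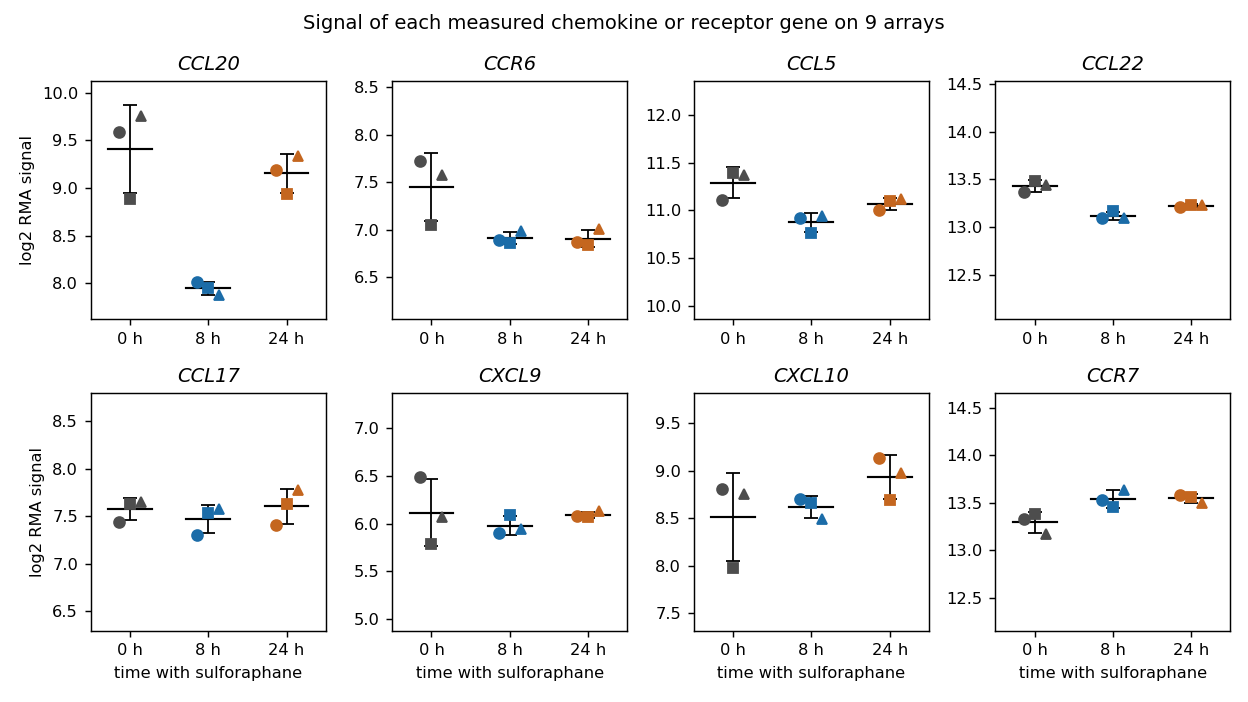
Log2 signal (vertical axis) of each measured member in the 3 cultures at 0, 8 and 24 h (horizontal axis), with circle, square and triangle for replicates 1, 2 and 3 and bars for the mean ± SD. Each panel spans the same number of log2 units, so distances can be compared between panels but heights cannot; CCL20 drops to 7.87 to 8.01 at 8 h while CCR6 stays at 6.84 to 7.01 at 8 and 24 h.

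CCL5 (RANTES), which attracts T cells and monocytes, was 1.33-fold lower at 8 h without passing the test. Its signals were 11.10, 11.39 and 11.38 in the untreated cultures, 10.92, 10.76 and 10.94 at 8 h, and 11.00, 11.09 and 11.12 at 24 h. The 8 h arrays lay below all untreated arrays and below all 24 h arrays. The difference at 8 h was -0.41 ± 0.09 (95% interval -0.63 to -0.20; limma adjusted p = 0.097). CCL5 passed at 8 h without untreated replicate 1, its lowest untreated array (-0.51, adjusted p = 0.028). At 24 h the difference from the untreated cultures was -0.22 ± 0.09 (adjusted p = 0.24) with overlapping arrays, and from 8 h to 24 h it was 0.20 ± 0.09 (adjusted p = 0.53). CCR1, a receptor of CCL5, differed by -0.25 ± 0.14 at 8 h (adjusted p = 0.42) and by -0.01 at 24 h (adjusted p = 0.96). CCR1 and the other partner genes named with their chemokines below (CCR4, CXCR3, CX3CL1, CXCL11, CCL19 and CCL21) were singled out after their values had been seen.

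CCL22 (MDC), which attracts CCR4-bearing T cells, was lower at both treated times by small amounts and did not pass at either. The signals were 13.37, 13.48 and 13.44 in the untreated cultures, 13.09, 13.16 and 13.10 at 8 h, and 13.21, 13.23 and 13.23 at 24 h. These 3 groups did not overlap, and the 24 h arrays lay between the other groups. The difference from the untreated cultures was -0.31 ± 0.06 at 8 h, or 1.24-fold lower (95% interval -0.44 to -0.19; limma adjusted p = 0.057), and -0.21 ± 0.06 at 24 h (95% interval -0.33 to -0.08; adjusted p = 0.12). From 8 h to 24 h it was 0.11 ± 0.06 (adjusted p = 0.56). At 8 h CCL22 passed in 7 of 20 alternatives: without untreated replicate 1 (-0.35, adjusted p = 0.032), without the dimmest 25% of clusters (0.046), without clusters below the median (0.043), with quantile normalization (0.042), with a trended variance (0.036) and with both kinds of array weights (0.00011 and 0.0071).

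CCL17 (TARC), the other ligand of CCR4, showed no such order. Its signals were 7.44, 7.63 and 7.65 untreated, 7.30, 7.53 and 7.58 at 8 h, and 7.41, 7.63 and 7.78 at 24 h, so that all groups overlapped. The differences were -0.10 ± 0.12 at 8 h (95% interval -0.37 to 0.16; limma adjusted p = 0.68) and 0.03 ± 0.12 at 24 h (95% interval -0.24 to 0.30; adjusted p = 0.89). In RefSeq's gene order CCL22 and CCL17 are separated only by CX3CL1, which encodes fractalkine, and CX3CL1 differed by -0.17 ± 0.09 at 8 h (adjusted p = 0.40) and -0.09 at 24 h (adjusted p = 0.56). CCR4 itself had signals of 7.42, 6.77 and 7.47 untreated, 6.88, 6.54 and 6.63 at 8 h, and 7.10, 7.21 and 7.11 at 24 h. Untreated replicate 2 was the lowest untreated array for CCR4, as for CCL20 and CCR6, and the 8 h difference of -0.53 ± 0.18 did not pass (adjusted p = 0.23).

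The 250 bases before the RefSeq start of CCL22 (GRCh38.p14, chr16:57358533-57358782, plus strand) and CXCL10 (chr4:76023498-76023747, minus strand) are shown since these are the other members with an NF-kB match, again in capitals and 5′ to 3′ along the gene:
CCL22: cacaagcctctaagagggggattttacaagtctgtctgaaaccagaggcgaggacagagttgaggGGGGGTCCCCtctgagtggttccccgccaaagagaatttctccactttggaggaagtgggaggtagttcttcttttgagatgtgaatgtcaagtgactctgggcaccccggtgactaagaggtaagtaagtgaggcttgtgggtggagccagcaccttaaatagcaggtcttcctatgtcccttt
CXCL10: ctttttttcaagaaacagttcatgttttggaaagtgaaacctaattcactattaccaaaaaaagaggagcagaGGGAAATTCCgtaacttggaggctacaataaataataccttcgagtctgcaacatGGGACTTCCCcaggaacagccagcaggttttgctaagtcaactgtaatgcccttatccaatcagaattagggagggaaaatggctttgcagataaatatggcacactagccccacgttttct
The match of CCL22 lay 185 to 176 bases before the start, and those of CXCL10 lay 177 to 168 and 122 to 113 bases before it. CXCL10 was also the only one of the 6 members with an antioxidant response element core, 91 to 83 bases before the start. The genes that share an NF-kB match thus had differences at 8 h of -1.46 (CCL20), -0.31 (CCL22) and 0.11 (CXCL10).

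CXCL9 and CXCL10, both ligands of CXCR3 known for their induction by interferon, passed no test. The signals of CXCL10 were 8.81, 7.98 and 8.75 in the untreated cultures, 8.70, 8.66 and 8.49 at 8 h, and 9.13, 8.69 and 8.98 at 24 h. The groups overlapped, and untreated replicate 2 was the lowest of the 9 arrays. The differences from the untreated cultures were 0.11 ± 0.22 at 8 h (95% interval -0.40 to 0.61; limma adjusted p = 0.83) and 0.42 ± 0.22 at 24 h (95% interval -0.09 to 0.93; adjusted p = 0.30). The sign at 8 h turned when arrays were weighted by their quality, and among the 9 fits leaving out 1 array only without untreated replicate 2 (-0.16).

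CXCL9 had signals of 6.49, 5.79 and 6.07 untreated, 5.90, 6.09 and 5.94 at 8 h, and 6.08, 6.07 and 6.13 at 24 h. The untreated arrays held both the highest and the lowest value of the 9. The differences were -0.14 ± 0.16 at 8 h (adjusted p = 0.68) and -0.02 ± 0.16 at 24 h (adjusted p = 0.94), and among the 9 fits leaving out 1 array both turned sign only without untreated replicate 1 (0.049 and 0.17). CXCL11, next to CXCL10 in RefSeq's gene order and the other ligand of CXCR3, differed by -0.16 ± 0.29 at 8 h (adjusted p = 0.80) and 0.00 at 24 h.

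CXCR3 had the smallest p at both times among the 17 measured genes listed as other chemokine receptors. Its signals were 8.22, 8.56 and 8.54 untreated, 7.91, 7.75 and 7.68 at 8 h, and 7.82, 7.99 and 7.99 at 24 h, with every treated array below every untreated one. The differences were -0.66 ± 0.11 at 8 h (limma adjusted p = 0.050, just above the threshold) and -0.51 ± 0.11 at 24 h (adjusted p = 0.069). Its ligands CXCL9 and CXCL10 differed by -0.14 and 0.11 at 8 h.

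CCR7 was the only measured member whose treated arrays all lay above all untreated arrays. The signals were 13.33, 13.38 and 13.17 in the untreated cultures, 13.53, 13.46 and 13.64 at 8 h, and 13.58, 13.56 and 13.50 at 24 h. The difference was 0.25 ± 0.08 at 8 h, or 1.19-fold higher (95% interval 0.07 to 0.42; limma adjusted p = 0.19), and 0.25 ± 0.08 at 24 h (95% interval 0.08 to 0.43; adjusted p = 0.14), so it passed at neither time. Between 8 h and 24 h the means differed by 0.01 ± 0.08 (95% interval -0.17 to 0.18). Its ligands CCL19 and CCL21 each differed by -0.08 at 8 h and by -0.08 and -0.12 at 24 h, and neither was called. The treated arrays of the receptors CCR7 and CCR6 thus lay on opposite sides of their untreated arrays.

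**Figure D3:**
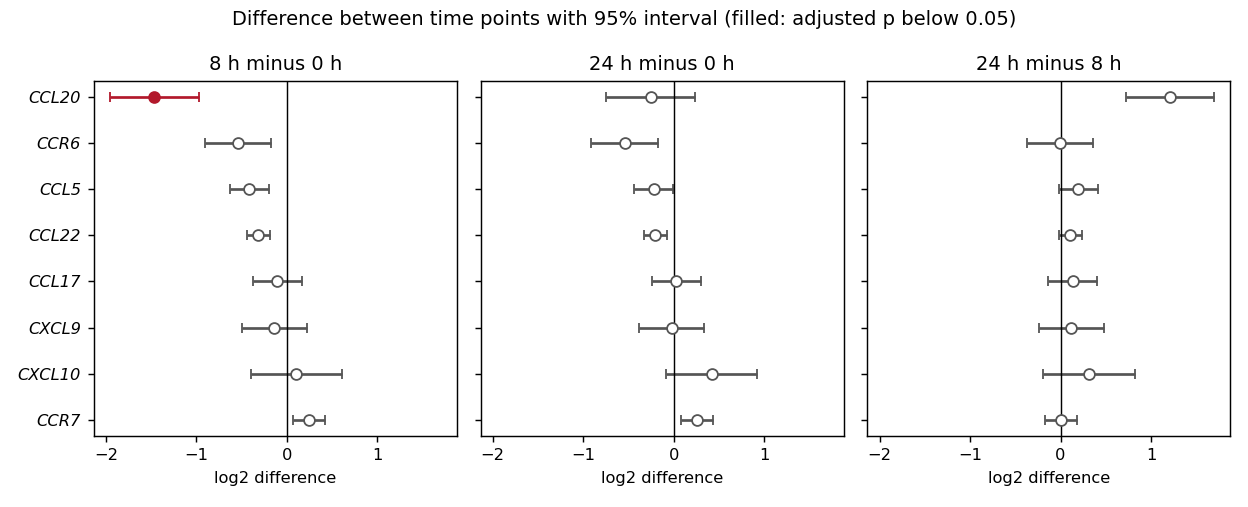
Log2 difference (horizontal axis) of the 8 measured members (vertical axis) between 8 h and 0 h, 24 h and 0 h, and 24 h and 8 h, with 95% intervals from limma and filled points where the adjusted p was below 0.05. CCL20 at 8 h is the only filled point, at -1.46, and the interval of CCL20 from 8 h to 24 h, 0.72 to 1.70, lies clear of 0 although it was not called.

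Counted over the set, 1 of 8 measured members was called at 8 h against the untreated cultures, where 0.595% of all clusters were called. In that comparison 1 of 8 fell, where 0.327% of all clusters fell. The call was that of CCL20, and the members were chosen with earlier results of these data known. The counts over the set are therefore descriptions and not a test of the set. An unadjusted p below 0.05 was found at 8 h for 5 of 8 members and 15.1% of all clusters. At 24 h against the untreated cultures limma called 0 of 8, where 1.62% of all clusters were called, and 4 of 8 had an unadjusted p below 0.05, as had 20.4% of all clusters. Between 24 h and 8 h limma called 0 of 8, where 0.327% of all clusters were called, and 1 of 8 had an unadjusted p below 0.05, as had 10.4% of all clusters. At 8 h 6 members had a lower and 2 a higher mean than untreated, and their median difference was -0.23, beside -0.01 over all clusters. The 8 h arrays lay wholly below the untreated arrays for 4 members (CCL20, CCL5, CCL22 and CCR6), as for 8.55% of all clusters, and wholly above them for 1 (CCR7), as for 9.06%. The 24 h arrays lay wholly below the untreated arrays for 2 members (CCL22 and CCR6), as for 8.75% of all clusters, and wholly above them for 1 (CCR7), as for 15.6%. They lay wholly above the 8 h arrays for 3 members (CCL20, CCL5 and CCL22), as for 15.2% of all clusters. At 24 h the median difference of the members from the untreated cultures was -0.11, beside 0.02 over all clusters. Both treated times were compared with the same untreated arrays, so those differences are not independent of each other.

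The array of untreated replicate 2 stood apart from the other 8 on the first principal component of all clusters. None of 9 measured B cell markers was called by limma at 8 h or 24 h (0 and 1 had an unadjusted p below 0.05), and all 9 were above the median of all clusters. The summed signal of these markers, on the linear scale, was 32840 to 34938 in the untreated arrays, 30548 to 33766 at 8 h and 32384 to 33761 at 24 h. Of 9 measured monocyte and dendritic cell markers none was above the median of all clusters, and their sum was 1189 to 1318 untreated, 940 to 1013 at 8 h and 1029 to 1086 at 24 h. All 9 had a lower mean at both times, with a median of -0.28 at 8 h and -0.15 at 24 h, and limma called none of them (4 and 3 had an unadjusted p below 0.05). These markers were thus lower at 8 h together with CCL20, CCL5, CCL22 and CCR6, and their part in those values was not tested. Of the 10 T and NK cell markers 9 had a lower mean at 8 h (median -0.11), as did 7 of the 8 epithelial and fibroblast markers (median -0.05), and limma called none in either list (2 and 1 had an unadjusted p below 0.05). In these lists 1 of 10 (NKG7, percentile 66.6) and 3 of 8 were above the median of all clusters, with KRT8 at percentile 93.4. Of all 22011 clusters, 11662 had a lower mean at 8 h and 10318 at 24 h. In bulk RNA fewer cells of a type and less RNA per cell cannot be told apart. The cultures were of 1 B cell line, and the monocyte and dendritic cell markers had a median percentile of 30.4. Without detection p-values such dim clusters could not be told from background.

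Among the other chemokine ligands limma called none of 27 measured of 36 listed genes in any comparison, with 3 at an unadjusted p below 0.05 at 8 h, 4 at 24 h and 1 between 24 h and 8 h, where 15.1%, 20.4% and 10.4% of all clusters had one. Of these 27, 24 had a lower mean at 8 h and 22 at 24 h, with medians of -0.12 and -0.09. A lower mean was found for 11662 and 10318 of all 22011 clusters. All 27 lay below the median of all clusters (the brightest, CX3CL1, at percentile 49.3), and no detection p-values were given to tell them from background. The smallest p-values belonged to CCL16 (-0.33 ± 0.09, adjusted p = 0.16) and CXCL8 (-0.35 ± 0.14, adjusted p = 0.30) at 8 h. At 24 h they belonged to CXCL16 (0.28 ± 0.08, adjusted p = 0.12) and CXCL8, the neutrophil attractant interleukin-8 (-0.50 ± 0.14, adjusted p = 0.12). Between 24 h and 8 h they were those of CXCL16 (0.26 ± 0.08, adjusted p = 0.28) and CCL24 (-0.23 ± 0.12, adjusted p = 0.57). With the replicate number as a block CXCL8 was called lower at 24 h (adjusted p = 0.036).

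Of 22 listed other chemokine receptors 17 were measured and limma called none in any comparison, with 4, 4 and 3 at an unadjusted p below 0.05 at 8 h, at 24 h and between the treated times (15.1%, 20.4% and 10.4% of all clusters). These 17 include GPR183, which is not itself a chemokine receptor. Leaving array weights aside, CXCR3 was called lower at 8 h under 6 alternatives and at 24 h under 2, and CCR4 at 8 h without untreated replicate 2 (-0.76, adjusted p = 0.024). At 8 h 12 had a lower and 5 a higher mean, with a median of -0.12. At 24 h 13 had a lower and 4 a higher mean, with a median of -0.08. Of all 22011 clusters, 11662 and 10318 had a lower mean at these times. Beside CXCR3 and CCR4, the named receptors were ACKR3, a scavenging receptor (0.55 ± 0.18 at 24 h, adjusted p = 0.17), and CCR9, a gut-homing receptor (0.26 ± 0.11 between 24 h and 8 h, adjusted p = 0.43). CCR4 was 0.46 ± 0.18 higher at 24 h than at 8 h without passing (adjusted p = 0.43).

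The genes that carry the signal of these receptors held the other calls. Of 29 measured of 32 listed signalling genes, 2 fell at 8 h, where 0.327% of all clusters fell, 2 fell at 24 h, where 0.791% of all clusters fell, and none rose at either time. Between 24 h and 8 h limma called none, with 8 at an unadjusted p below 0.05 (10.4% of all clusters). At 8 h 26 had a lower and 3 a higher mean, with a median of -0.13, beside 11662 of all 22011 clusters with a lower mean. GNG2, a G protein gamma subunit, had signals of 11.28, 11.32 and 11.23 untreated, 10.64, 10.71 and 10.68 at 8 h, and 10.91, 10.96 and 10.93 at 24 h. These groups did not overlap. GNG2 fell by 0.60 ± 0.05 at 8 h (limma adjusted p = 0.0066), a call that held in all 9 fits leaving out 1 array but not with only the 2 groups compared (adjusted p = 0.076), and by 0.34 ± 0.05 at 24 h (adjusted p = 0.029), a call that held in 3 of the 9 and was lost with quantile normalization (adjusted p = 0.053) and with only the 2 groups compared (0.10).

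ARRB1, which encodes beta-arrestin 1 and helps to switch receptors off, had signals of 7.49, 7.50 and 7.51 untreated, 6.91, 6.95 and 7.04 at 8 h, and 7.29, 7.29 and 7.37 at 24 h. Its 8 h arrays were the lowest and its 24 h arrays lay between. The cluster of ARRB1 was dim, at percentile 34.5 of all clusters, and so was not part of the fit without clusters below the median. ARRB1 fell by 0.53 ± 0.06 at 8 h (limma adjusted p = 0.014), a call lost without untreated replicate 3, without 8 h replicate 1 or with only the 2 groups compared (adjusted p = 0.11). It was 0.35 ± 0.06 higher at 24 h than at 8 h without passing (adjusted p = 0.069), as was RGS14, a regulator of G protein signalling (0.41 ± 0.07, adjusted p = 0.087). RAC2, a GTPase of cell movement, fell by 0.40 ± 0.08 at 24 h (adjusted p = 0.046), and among the fits leaving out 1 array it passed only without untreated replicate 1. The call of RAC2 was also lost with quantile normalization (adjusted p = 0.063), with only the 2 groups compared (0.14) and with the replicate number as a block (0.059).

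**Figure D4:**
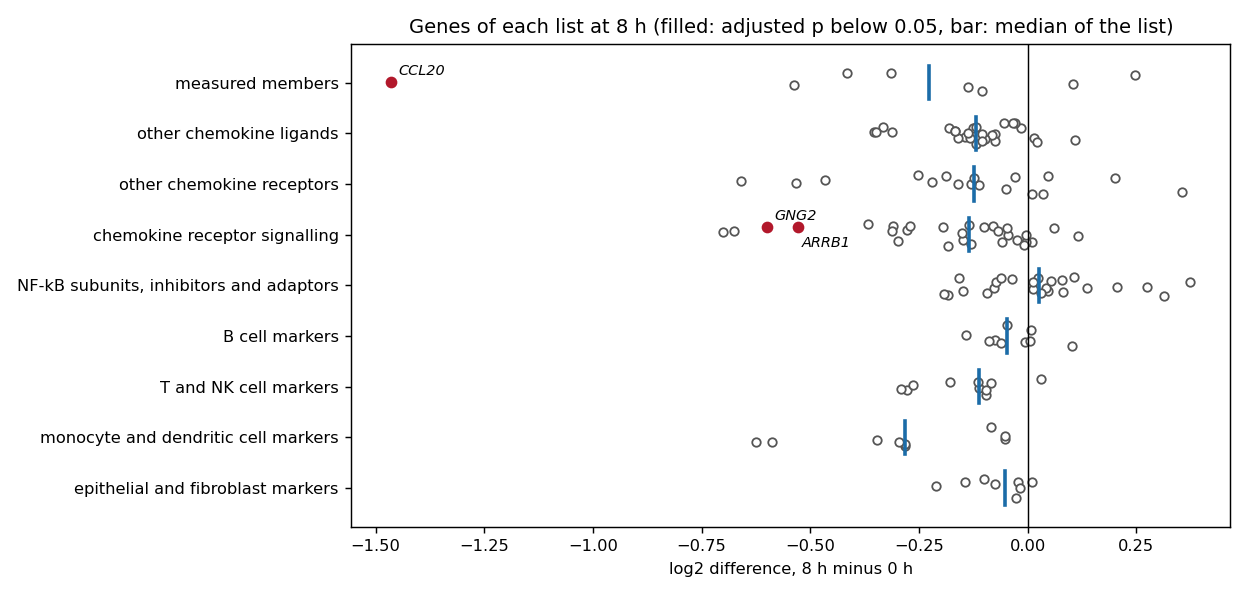
Log2 difference between 8 h and 0 h (horizontal axis) of each measured gene in the set, in the 4 pathway lists and in the 4 cell marker lists (vertical axis), with the median of each list as a bar and filled points where the limma adjusted p was below 0.05. The filled points are CCL20, GNG2 and ARRB1, and the median of the NF-kB list, 0.03, lies to the right of those of the other lists.

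No measured gene of the NF-kB list was called in the fit reported here. The list did not hold IKBKE, a gene of the IkB kinase family that was called lower at 8 h (-0.52, limma adjusted p = 0.041) and is described below. The 28 listed genes were subunits, inhibitors and adaptors, together with CD40, LTB and TNF. Of these 28, 24 were measured and limma called 0, with 3 at an unadjusted p below 0.05 at 8 h, 7 at 24 h and 4 between the treated times, beside 15.1%, 20.4% and 10.4% of all clusters. The median difference of these 24 genes was 0.03 at 8 h and 0.13 at 24 h. A higher mean was found for 15 and 22 of the 24, beside 10340 and 11686 of all 22011 clusters. Untreated replicate 2 was the lowest untreated array for many of them, such as REL (11.42, 10.49 and 11.25). That array was also the lowest untreated one for TRAF6 (9.72, 9.39 and 9.78) and CYLD, which are described below. It was not the lowest for others, such as RELA (10.64, 10.76 and 10.80), and these medians and counts were not computed without that array. TRAF6, an adaptor that activates NF-kB, differed by 0.37 ± 0.12 at 8 h (adjusted p = 0.20) and 0.41 ± 0.12 at 24 h (adjusted p = 0.13). CYLD, a deubiquitinase that restrains it, differed by 0.28 ± 0.09 at 8 h (adjusted p = 0.20). The inhibitor gene NFKBIB differed by -0.36 ± 0.08 at 24 h (adjusted p = 0.072) and by -0.27 ± 0.08 between 24 h and 8 h (adjusted p = 0.28), and NFKBIA, another inhibitor and a target of NF-kB, by 0.22 ± 0.07 between 24 h and 8 h (adjusted p = 0.31). At 24 h NFKBIB was called lower with the replicate number as a block (adjusted p = 0.045), without clusters below the median (0.048) and without 8 h replicate 2 (0.050, just below the threshold), and CYLD was called higher without untreated replicate 1 (0.38, adjusted p = 0.047). These are RNA levels and not NF-kB activity.

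The genes whose signal over the 9 arrays was most like that of CCL20 were sought by Pearson correlation among 7318 other genes whose mean signal was at or above the median of all clusters. All 9 points share the 3 time points and the same arrays, and so do the correlations, which are given as a description. The highest belonged to IKBKE, a kinase of the IkB kinase family (r = 0.99), DTWD2 (0.99), SPRED2, an inhibitor of Ras signalling (0.98), ETV5, an ETS transcription factor (0.98), and TOE1, a nuclear deadenylase (0.97). Of these, IKBKE fell by 0.52 at 8 h (limma adjusted p = 0.041) and ETV5 by 0.92 (adjusted p = 0.037), and among the fits leaving out 1 array both passed only without untreated replicate 1 or 2. DTWD2, SPRED2 and TOE1 differed by -0.50, -0.59 and -0.43 and did not pass (adjusted p = 0.088, 0.082 and 0.12). The lowest belonged to RETREG3 (r = -0.96), ARFGAP1 (-0.94) and BAG3, a co-chaperone of the heat shock response (-0.93), of which BAG3 rose by 0.48 at 8 h (adjusted p = 0.021), a call that held in 3 of the 9 fits leaving out 1 array. RETREG3 and ARFGAP1 differed by 0.34 and 0.20 at 8 h (adjusted p = 0.057 and 0.13).

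**Figure D5:**
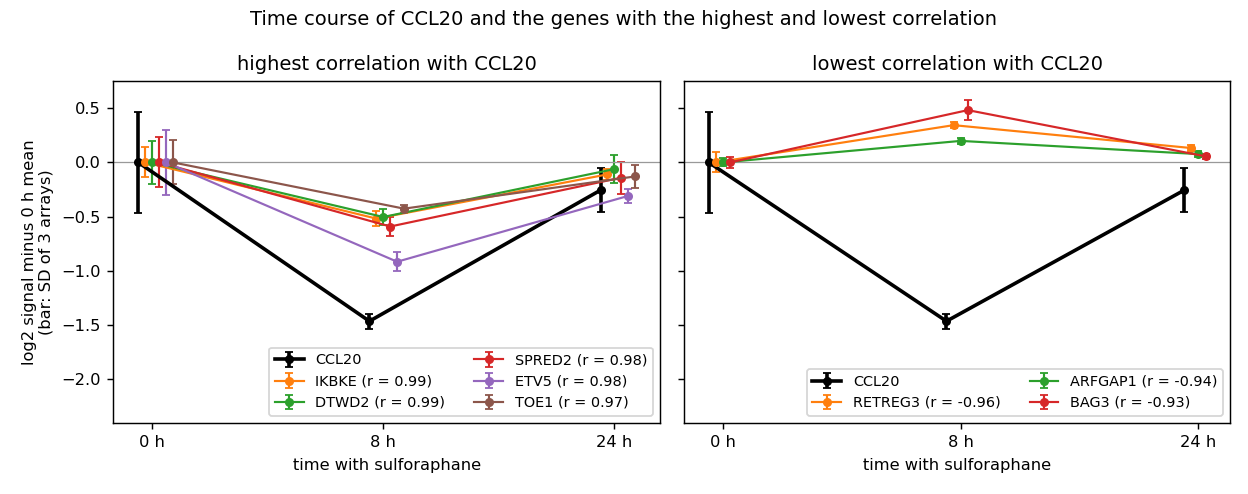
Mean log2 signal minus the untreated mean (vertical axis, bar SD of 3 arrays) at 0, 8 and 24 h (horizontal axis) for CCL20 and the 5 genes with the highest (left) and 3 with the lowest (right) Pearson correlation with it over the 9 arrays. All 5 genes at left have their lowest mean at 8 h, and none is as far down as CCL20 at -1.46; the 3 at right have their highest mean at 8 h.

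Within the set, the members most like CCL20 over the 9 arrays were CCL22 (r = 0.74), CCL5 (0.71) and CCR6 (0.66). CXCL9 (0.51), CCL17 (0.33) and CXCL10 (0.33) were less so, and CCR7 ran the other way (-0.62). CCL5 and CCL22 were closer to each other (0.89) than either was to CCL20. Every pair shares the same 9 arrays and time points, and these values too are descriptions.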

How the data were processed

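The authors deposited log2 signals per transcript cluster, made by RMA with sketch-quantile normalization in Affymetrix Expression Console, per the labels and the submitters' processing notes. Versions and build: not given in the sources used here. Quantile normalization is meant to remove a shift common to all genes, but the deposited arrays still differed in level. Their medians ran from 7.99 (untreated replicate 2) to 8.13 (24 h replicate 1), and their upper quartiles from 9.28 to 9.63 in the same 2 arrays. The table has no detection p-values, so dim clusters (such as CXCL9, CCR6, CCR4 and ARRB1) could not be told from background. Cluster names came from GEO's platform annotation. Of 22011 clusters, 14432 had 1 symbol, 2408 several and 5171 none. A symbol with several clusters of its own was represented by the brightest.

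limma 3.58.1 in R 4.3.3 was fitted to all 9 arrays with 1 mean per group and eBayes (two-sided, all clusters tested, Benjamini-Hochberg within each comparison, threshold 0.05) and tested on simulated data. The number of arrays, 3 per group, limits the precision. Cultures are named as replicates by the labels, which do not say whether they were independent experiments, so p-values measure only the spread between these samples. Members, lists and motifs were chosen with earlier results of these data known. Named genes were the members, the called genes of each list or, with none called, the 2 with the smallest p, and the 5 highest and 3 lowest correlations with CCL20. Alternatives were the normalization, filters on dim clusters, the variance model, array weights, a replicate block, only the groups compared, a threshold of 0.01 and leaving out each array. Promoters are RefSeq's, GRCh38.p14. CCL4, CCL5, CCL17 and CCR7 had no entry.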

Additional observations from a re-analysis of the deposited data

Results flagged for a closer look

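BAG3, the co-chaperone gene among those running opposite to CCL20, differed between the treated times: its change from the untreated cultures at 24 h minus that at 8 h was -0.43 on the log2 scale (limma adjusted p = 0.049). In the fits leaving out 1 array this difference passed in 2 of 9, without untreated replicate 2 or without 8 h replicate 2. No measured member met such a test of the difference between the treated times.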

How the results depend on the processing

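The number of measured members called at 8 h was 1 as reported. It was 2 without the dimmest 25% of clusters, without clusters below the median, with quantile normalization and with a trended variance. It was 6 with array weights, 5 with gene-by-gene array weights, 0 with only the 2 groups compared and 0 at a threshold of 0.01. Over the fits leaving out 1 array it was 0 to 3. Among all clusters these settings called, in turn, 302, 312, 390, 143, 9603, 1703, 9, 19 and 9 to 654, where 131 were called as reported. At 24 h 0 members were called, and 5 and 3 with the 2 kinds of array weights, with 0 to 1 over the fits leaving out 1 array. Those weights called 9010 and 1889 of all clusters at 24 h, where 357 were called as reported. Between 24 h and 8 h 0 members were called, and 1 without the dimmest 25%, without clusters below the median, with quantile normalization, with either kind of array weights and with only the 2 groups compared, with 0 to 1 over the fits leaving out 1 array. Among all clusters tested these settings called, in turn, 100, 115, 109, 1516 and 1325 (the weights) and 25, where 72 were called as reported. The first array weights did not converge and gave untreated replicate 3 a weight of 29.8 against 0.136 for replicate 2. The gene-by-gene weights were added for that reason, after seeing the data.

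CCL20 at 8 h passed in 12 of 20 alternatives. Its difference was -1.46 with only the 2 groups compared, where it did not pass (adjusted p = 0.14), and -1.73 to -1.29 over the fits leaving out 1 array. At 24 h its difference was -0.52 with array weights, where it passed (adjusted p = 0.0042). Between 24 h and 8 h it passed at 1.21 without the dimmest 25% (adjusted p = 0.049), without clusters below the median (0.031) and with only the 2 groups compared (0.042), at 1.13 with quantile normalization (0.027), and at 1.26 and 1.29 with the array weights (0.0023 and 0.0022). It ranged from 1.12 to 1.32 over the fits leaving out 1 array.

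No called difference of a member turned sign. Near 0, CCL17 at 24 h was -0.00069 with quantile normalization, -0.034 with arrays centred on the median and -0.056 to 0.13 over the fits leaving out 1 array. CXCL9 at 24 h was 0.038 with array weights and -0.18 to 0.17 over those fits, and at 8 h -0.30 to 0.049. CXCL10 at 8 h was -0.10 and -0.11 with the array weights and -0.16 to 0.26 over those fits. Between 24 h and 8 h CCR7 was -0.034 with centring, -0.025 and -0.042 with the weights and -0.036 to 0.056 over those fits, and CCR6 was 0.042 and 0.036 with the weights and -0.058 to 0.032 over those fits. The cause of these changes was not tested.

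The replicate numbers were not shown to pair the cultures: deviations of same-numbered arrays correlated between -0.14 and 0.39. The highest values were between untreated and 24 h arrays, 0.39 for replicate 1 and 0.38 for replicate 2, against 0.06 for replicate 3. Pairs with an 8 h array lay between -0.14 and 0.10. With the replicate number as a block, limma called 1, 0 and 0 members, and CCL20 at 8 h was -1.46 (adjusted p = 0.045). Over all clusters the counts of 131, 357 and 72 became 85, 378 and 44 with the block, 291, 314 and 160 without untreated replicate 2, 9 to 654, 21 to 768 and 4 to 160 over all fits leaving out 1 array, and 1703 to 9603, 1889 to 9010 and 1325 to 1516 with array weights. The array weights called 8 to 17 of the receptor signalling genes at 8 h, where 2 were called as reported, and 1 to 10 other ligands, 3 to 9 other receptors and 3 to 11 NF-kB genes, where 0 were called. Leaving weights aside, CXCR3 at 8 h was called under 6 alternatives (lowest adjusted p = 0.020, without untreated replicate 1) and RGS16 at 8 h under 5 (lowest 0.012, with quantile normalization). With the block RAC2 at 24 h (adjusted p = 0.059), and IKBKE (0.075), ETV5 (0.063) and BAG3 (0.054) at 8 h, were no longer called. The table gives no signal over background, which limits what can be said of dim genes such as CXCL9, CCR6, CCR4 and ARRB1.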
